A study of Capra hircus with 12 samples.

Results

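The genes of transforming growth factor β (TGF-β) ligands, receptors and latency proteins were followed in cultured goat temporomandibular joint (TMJ) cells. The members were chosen by name: the ligands TGFB1, TGFB2 and TGFB3, the receptors TGFBR1, TGFBR2 and TGFBR3, the latent TGF-β binding proteins LTBP1, LTBP2 and LTBP3, and the intracellular inhibitor SMAD7. These are 10 of the 28910 genes in the count tables, and all 10 had enough counts to be tested in every comparison. TGF-β is secreted bound to its own propeptide, and the LTBPs tether most of this latent complex to fibrillin and fibronectin in the matrix until integrins, proteases or acid release the ligand. The free ligand binds TGFBR2, which phosphorylates TGFBR1 and so switches on SMAD2 and SMAD3, while SMAD7 is induced by the same signal and blocks the active receptor. In articular and condylar cartilage this pathway is known for sustaining matrix synthesis and for holding back chondrocyte hypertrophy, and both loss and excess of it are linked to osteoarthritis in animals.

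Messenger RNA was sequenced in 12 libraries, 3 in each of 4 groups. The cells came from the condylar fibrocartilage of female goats aged 6 to 9 months, split by digestion into superficial layer cells (SLC) and middle cartilage layer cells (MLC), expanded in serum-containing monolayer culture and used at passages 3 to 5. In each layer, 3 libraries were labelled IL-1β, an inflammatory cytokine given at 10 ng for 1 h, and 3 were labelled IL-1β + LOXL2, where the collagen crosslinking enzyme lysyl oxidase-like 2 was delivered overnight by an adenovirus (Ad5) before IL-1β. All 4 groups received IL-1β, so no comparison below measures the effect of IL-1β itself. No empty-virus control is stated for the sequenced cultures with IL-1β alone, and effects of LOXL2 and of the virus cannot be told apart here. The labels do not say whether the replicates were separate animals or separate dishes, so the p-values measure the spread between these libraries, which may be technical. Library totals were 18751323 to 22123593 counts in SLC with IL-1β and 21080134 to 28931652 in SLC with IL-1β + LOXL2. In MLC they were 14158607 to 15330697 with IL-1β and 14188227 to 19459045 with IL-1β + LOXL2. The scarcest of the 10 genes still had at least 186 counts in every library. Levels are given as CPM, a gene's counts scaled to a common library total, after TMM scaling over the 12 libraries, and they are compared between libraries of the same gene only, because transcript lengths were not used.

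The labels were checked first. The goat LOXL2 gene had 622 ± 9.86 CPM (SD, n = 3) in SLC with IL-1β and 522 ± 55.9 CPM (SD, n = 3) in the SLC libraries labelled IL-1β + LOXL2. In MLC it had 820 ± 54.4 CPM (SD, n = 3) and 785 ± 37.7 CPM (SD, n = 3). The SLC groups did not overlap, with at most 561 CPM under the LOXL2 label and at least 615 CPM without it, while the MLC groups overlapped. In neither layer, then, did the label go with more LOXL2 reads (log2 fold change -0.27 in SLC and -0.066 in MLC, edgeR's quasi-likelihood test, Benjamini-Hochberg adjusted p = 0.106 and 0.595). Whether reads of the viral insert would map to the goat gene, or whether labels were exchanged, was not tested, and every direction below rests on the labels. The cartilage identity of the layers differed. ACAN, the aggrecan core protein, had 47.5 ± 2.48 CPM (SD, n = 3) in SLC and 400.4 ± 44.2 CPM (SD, n = 3) in MLC with IL-1β. COL2A1 and COL9A1, which define hyaline cartilage, had 0 counts in every SLC library with IL-1β against 16.6 and 14.01 CPM in MLC, and MATN1 had 0 counts in all 12 libraries. Of the 11 chondrocyte markers in the tables, COL11A1 took the most counts. The superficial layer marker PRG4 (lubricin) stood at 4.39 ± 0.520 CPM (SD, n = 3) in SLC and 5.97 ± 1.12 CPM (SD, n = 3) in MLC with IL-1β. Of the 9 tested genes of the fibrous superficial list, 3 were higher in SLC with IL-1β (THY1, TNXB and COL1A2, log2 fold change of MLC against SLC -0.59, -2.07 and -0.34) and 3 in MLC (DCN, COL3A1 and PRG4, 1.04, 0.70 and 0.44), where 46.9% of all genes differed, so the list had no common direction. Of the leukocyte list, PTPRC, TYROBP and C1QA were at or near 0, while CD14 had group means of 65.5 to 107 CPM and CD68 of 5.44 to 9.64 CPM. Of the vessel list, CDH5, KDR and CLDN5 were at or near 0, and VWF had group means of 1.63 to 3.90 CPM. Identity markers were read in the LOXL2 comparison averaged over layers, where 26.6% of all genes were called higher and 23.9% lower. Of 8 tested chondrocyte markers 3 were lower, a count near that share, SOX5 (log2 fold change -0.81), SOX6 (-0.75) and COL11A1 (-0.37), with edgeR's quasi-likelihood adjusted p = 0.00424, 0.00504 and 0.0346. SOX5 went from 8.76 to 4.76 CPM in SLC and from 21.6 to 12.8 CPM in MLC as group means. The summed chondrocyte list had 1348, 1396 and 1269 CPM in SLC with IL-1β and 1265, 664 and 888 CPM with LOXL2, against 1844, 1686 and 1833 CPM and 1771, 1477 and 1339 CPM in MLC. Most of this sum was COL11A1, with group means of 1233 and 859 CPM in SLC and 1195 and 1022 CPM in MLC. Of 9 tested fibrous layer markers 4 passed, also near the share of all genes (50.5%). SCX (log2 fold change 0.52) and THY1 (0.43) were higher and PDGFRA (-0.58) and COL3A1 (-0.22) lower. The leukocyte list had no common direction. CD68 was higher (0.50, edgeR's quasi-likelihood adjusted p = 0.0353), while CD14 and CSF1R had lower group means with LOXL2 in both layers. CD14 went from 76.8 to 65.5 CPM in SLC and from 107 to 86.4 CPM in MLC, and CSF1R from 1.61 to 1.26 and from 1.34 to 1.18 CPM. The other 5 genes of that list stayed under 1 CPM in every library. The part of these values in the results below was not tested. In such bulk samples fewer cells of a type and less RNA per cell cannot be told apart.

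The comparison of IL-1β + LOXL2 with IL-1β asks what overnight delivery of LOXL2 changes in cells that are then given the cytokine. Averaged over both layers, 6 of the 10 genes were lower with LOXL2 past the threshold (an adjusted p under 0.05), namely all 3 receptors, LTBP1, LTBP2 and SMAD7. None was higher past the threshold. Levels did not overlap in either layer for 4 of the 10 (the 3 receptors and LTBP2, all lower), as for 13.7% of all genes lower and 13.8% higher. Over all 14534 genes tested, 50.5% passed, 26.6% higher and 23.9% lower. The share of members past the threshold in either direction is near that background, although all 6 called members were lower. Of the 10 genes, 6 are among the genes with the longest genomic span, of which 49.7% were called lower. The median log2 fold change was -0.28 over the 10 genes and 0.013 over all genes. The averaged comparison uses the same libraries as the comparisons within each layer and is not independent of them. Its test also treats the 12 libraries as independent of each other. Same-numbered SLC and MLC libraries with IL-1β + LOXL2 deviated together (correlations 0.168 to 0.605), so the averaged p-values may be too small. Within MLC alone, 3 of the 10 genes passed (TGFBR1, TGFBR3 and LTBP2, all lower), where 21.6% of 13664 genes passed, 9.81% higher and 11.8% lower. The MLC groups did not overlap for 1 gene that was higher, TGFB1, against 21% of all genes, and for 4 that were lower, the receptors and LTBP2, against 20.5%. Within SLC alone, none of the 10 and 0 of 14103 genes (0%) passed in edgeR's quasi-likelihood test. At an unadjusted p under 0.05 there were 5 of the 10 in SLC, all lower, against 43.3% of all genes (23.1% higher and 20.2% lower), and DESeq2's Wald test called the same 5 and 4105 genes. A fit on all 12 libraries also called these 5, the receptors, LTBP1 and LTBP2, with 5965 genes in SLC, but none of the 10 and 0 genes in MLC. The SLC groups did not overlap for LTBP3 (higher, against 25.5% of all genes) and for 6 genes that were lower, the receptors, LTBP1, LTBP2 and SMAD7 (against 23.5%). The calls within a layer rest on single libraries. Without replicate 1 of SLC IL-1β + LOXL2, 7 of the 10 passed in SLC (TGFB1 higher, and TGFB2, the 3 receptors, LTBP1 and LTBP2 lower), as did 8849 of 14334 genes. The averaged comparison without the same library called 9223 of 14718 genes and 9 of the 10, TGFB1 (log2 fold change 0.24) and LTBP3 (0.14) higher and 7 lower, TGFB2 among them (-0.43). In MLC, 6 of the 10 passed without replicate 1 of IL-1β + LOXL2 (TGFB1 higher, and the 3 receptors, LTBP1 and LTBP2 lower), beside 6653 of 13838 genes. Only LTBP2 passed there without replicate 2 of IL-1β, and none passed without replicate 1 or 3 of IL-1β or replicate 2 or 3 of IL-1β + LOXL2. In the averaged comparison, the 3 receptors, LTBP1 and LTBP2 passed in all 12 fits that each left out 1 library.

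**Figure D1:**
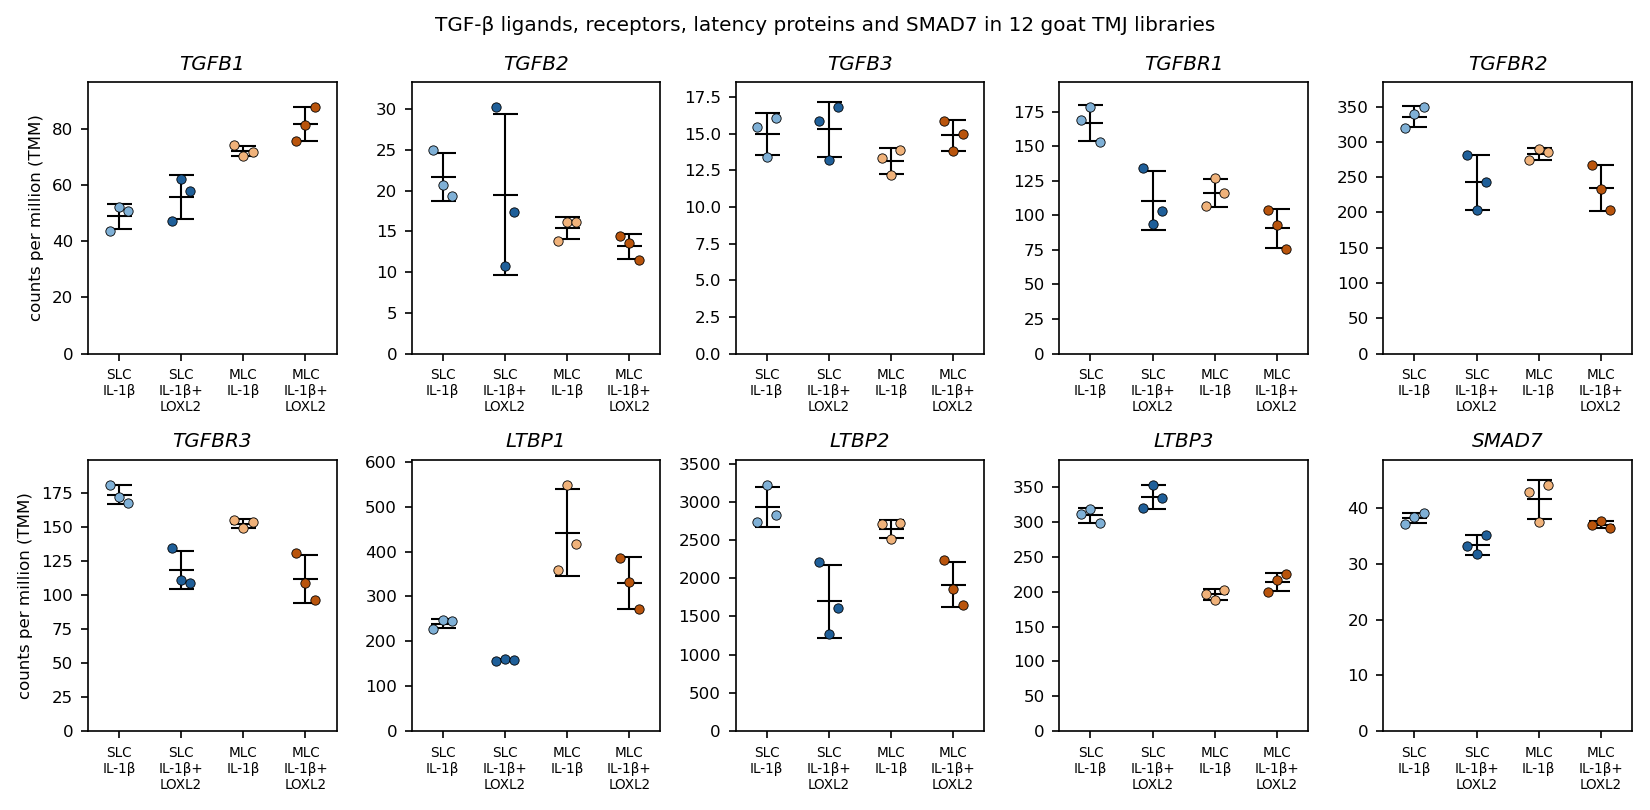
Level of each gene in the 12 libraries, in CPM after TMM scaling, with 1 point per library, the group mean as a line and the SD as error bars (n = 3). The 3 receptors, LTBP1 and LTBP2 have lower means with IL-1β + LOXL2 in both layers, and TGFB1, LTBP1 and LTBP3 separate the layers.

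TGFB1 is the ligand isoform best known from blood platelets, bone and fibrotic matrix. In SLC it had 43.7, 52.1 and 50.8 CPM with IL-1β (replicates 1, 2 and 3) and 47.2, 62.4 and 57.8 CPM with IL-1β + LOXL2. In MLC it had 74.2, 70.4 and 71.9 CPM with IL-1β and 75.8, 81.5 and 87.8 CPM with IL-1β + LOXL2. Every MLC library was above every SLC library, the LOXL2 libraries overlapped the IL-1β libraries in SLC, and in MLC they lay just above them. The log2 fold change for LOXL2 was 0.19 averaged over layers (standard error 0.080, edgeR's quasi-likelihood adjusted p = 0.0695), with 0.17 in SLC and 0.18 in MLC, and it did not pass in any of the 3 comparisons. With the replicate number as a block the averaged value passed (edgeR's quasi-likelihood adjusted p = 0.0460). Without replicate 1 of IL-1β + LOXL2 it did, at 0.27 in SLC and 0.23 in MLC (edgeR's quasi-likelihood adjusted p = 0.0327 and 0.0212), while without replicate 2 of SLC IL-1β + LOXL2 the SLC value was 0.091. The layer difference did pass. TGFB1 was higher in MLC by a log2 fold change of 0.56 with IL-1β (standard error 0.073, edgeR's quasi-likelihood adjusted p = 1.92e-05) and of 0.57 with IL-1β + LOXL2 (standard error 0.13, adjusted p = 0.0276). The call with LOXL2 was lost without replicate 3 of SLC IL-1β + LOXL2 or any single MLC IL-1β + LOXL2 library, with edgeR's quasi-likelihood adjusted p from 0.0553 to 0.125, while the log2 fold change stayed at 0.51 or above in those fits.

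TGFB2, an isoform prominent in the embryo and in mesenchyme, had 25.0, 20.8 and 19.4 CPM in SLC with IL-1β and 30.3, 10.8 and 17.4 CPM with IL-1β + LOXL2. The MLC values were 13.9, 16.2 and 16.2 CPM with IL-1β and 14.4, 13.6 and 11.4 CPM with IL-1β + LOXL2. The SLC LOXL2 libraries held both the highest value of the series, in replicate 1, and the lowest, in replicate 2, so the spread within that group exceeded any difference between groups. Its LOXL2 log2 fold change averaged over layers was -0.19 (95% interval -0.62 to 0.23, edgeR's quasi-likelihood adjusted p = 0.427) and turned to 0.059 when the trend on gene span described below was removed. It was -0.43 without replicate 1 of SLC IL-1β + LOXL2, where it passed (adjusted p = 0.00721 in edgeR), and -0.047 without its replicate 2. In SLC alone it was -0.17, turning to 0.12 with the same removal and to 0.13 without replicate 2 of IL-1β + LOXL2, and reaching -0.65 without replicate 1, where it passed (edgeR's quasi-likelihood adjusted p = 0.0103). With IL-1β, TGFB2 was lower in MLC than in SLC, every MLC library lying below every SLC library (log2 fold change -0.49, standard error 0.11, edgeR's quasi-likelihood adjusted p = 0.00221), a call lost when all 12 libraries were fitted at once (adjusted p = 0.231). With IL-1β + LOXL2 the layers overlapped (log2 fold change -0.56, standard error 0.35, edgeR's quasi-likelihood adjusted p = 0.345), and the value ran from -0.074 without replicate 1 of SLC IL-1β + LOXL2 to -0.85 without its replicate 2.

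TGFB3, the isoform used most widely to drive chondrogenesis in culture, varied least among the ligands. Its level ran from 13.4 to 16.1 CPM in SLC with IL-1β, 13.2 to 16.8 CPM in SLC with IL-1β + LOXL2, 12.2 to 13.9 CPM in MLC with IL-1β and 13.8 to 15.9 CPM in MLC with IL-1β + LOXL2. All neighbouring groups overlapped, and no comparison called it. The log2 fold change for LOXL2 averaged over layers was 0.11 (95% interval -0.086 to 0.30, edgeR's quasi-likelihood adjusted p = 0.331).

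All 3 receptors had lower levels with LOXL2 in each layer. TGFBR1, the type I kinase that phosphorylates SMAD2 and SMAD3, had 169.2, 178.4 and 153.2 CPM in SLC with IL-1β and 134.4, 93.7 and 103.5 CPM with IL-1β + LOXL2. Its MLC values were 106.5, 126.9 and 116.0 CPM with IL-1β and 103.9, 92.7 and 75.7 CPM with IL-1β + LOXL2. In each layer every LOXL2 library was below every IL-1β library, and LOXL2 replicate 1 lay closest to the IL-1β group. TGFBR1 fell by 28.2% averaged over layers (log2 fold change -0.48, standard error 0.10, edgeR's quasi-likelihood adjusted p = 0.00561). The log2 fold change was -0.61 in SLC (standard error 0.16, edgeR's quasi-likelihood adjusted p = 0.0706) and -0.36 in MLC (standard error 0.12, adjusted p = 0.0473), and the MLC call was kept in 1 of 6 fits that left out a library. It was lost without replicate 1, 2 or 3 of MLC IL-1β (adjusted p = 0.0917, 0.146 and 0.143 in edgeR) and without replicate 2 or 3 of MLC IL-1β + LOXL2 (0.143 and 0.158). TGFBR1 also differed between layers with IL-1β, where every MLC library was below every SLC library (log2 fold change -0.52, standard error 0.075, edgeR's quasi-likelihood adjusted p = 5.93e-05). With LOXL2 the layers overlapped (log2 fold change -0.27, 95% interval -0.71 to 0.16, and -0.095 without replicate 1 of SLC IL-1β + LOXL2).

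TGFBR2, the type II kinase that captures the ligand, had 319.2, 339.7 and 349.4 CPM in SLC with IL-1β and 280.8, 203.7 and 243.6 CPM with IL-1β + LOXL2. Across MLC it had 273.8, 289.4 and 285.8 CPM with IL-1β and 267.5, 233.2 and 203.1 CPM with IL-1β + LOXL2. The groups again did not overlap within a layer, although the gap in MLC between LOXL2 replicate 1 and the lowest IL-1β library was small. TGFBR2 fell by 22.6% averaged over layers (log2 fold change -0.37, standard error 0.087, edgeR's quasi-likelihood adjusted p = 0.00648). Neither layer alone passed, with log2 fold changes of -0.48 in SLC and -0.27 in MLC (edgeR's quasi-likelihood adjusted p = 0.0706 and 0.0700). Each did without its replicate 1 of IL-1β + LOXL2 (log2 fold change -0.61 and -0.38), while without replicate 3 of MLC IL-1β + LOXL2 the MLC value was -0.18 (edgeR's quasi-likelihood adjusted p = 0.243). TGFBR2 was lower in MLC than in SLC with IL-1β (log2 fold change -0.24, standard error 0.060, edgeR's quasi-likelihood adjusted p = 0.00378; 0.170 with all 12 libraries fitted at once). With LOXL2 the layers overlapped almost fully (log2 fold change -0.039, 95% interval -0.43 to 0.35).

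TGFBR3 (betaglycan), a co-receptor without kinase activity that presents ligand to TGFBR2, had 181.0, 172.1 and 167.4 CPM in SLC with IL-1β and 134.4, 111.1 and 109.0 CPM with IL-1β + LOXL2. The MLC libraries had 154.9, 148.9 and 153.3 CPM with IL-1β and 130.9, 109.0 and 96.1 CPM with IL-1β + LOXL2. All 6 LOXL2 libraries were below all 6 IL-1β libraries, whichever layer they came from. TGFBR3 fell by 29.2% averaged over layers (log2 fold change -0.50, standard error 0.082, edgeR's quasi-likelihood adjusted p = 0.00448). In MLC it fell by 26.6% (log2 fold change -0.45, standard error 0.11, edgeR's quasi-likelihood adjusted p = 0.0229), and in SLC the log2 fold change was -0.57 (adjusted p = 0.0706). The MLC call was lost without replicate 1, 2 or 3 of MLC IL-1β (adjusted p = 0.0859, 0.0544 and 0.0997 in edgeR) and without replicate 2 or 3 of MLC IL-1β + LOXL2 (0.111 and 0.0670). Its layer difference with IL-1β was small (log2 fold change -0.18, standard error 0.058, edgeR's quasi-likelihood adjusted p = 0.0177) and was lost without replicate 1 of SLC IL-1β or replicate 3 of MLC IL-1β (adjusted p = 0.0837 and 0.0594 in edgeR). All 12 libraries fitted at once also lost it (adjusted p = 0.275 in edgeR). In a two-sided exact permutation test that shuffled labels within layers (400 arrangements), each of the 3 receptors and LTBP2 gave p = 0.005, the smallest p these arrangements can give. Any gene whose groups do not overlap in the same direction in both layers gets this p, so it only repeats that overlap result. Of all genes, 13.7% lower and 13.8% higher met this condition, and the permutation p-values are not adjusted for the number of genes. The same exact permutation test gave p = 0.01 for LTBP1 and SMAD7, 0.015 for LTBP3, 0.05 for TGFB1, 0.205 for TGFB3 and 0.3 for TGFB2. It shuffled the 2 layers independently, although same-numbered SLC and MLC libraries with IL-1β + LOXL2 deviated together (correlations 0.168 to 0.605). Its p-values ignore that pairing and may be too small.

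LTBP1, which binds the latent complex covalently and anchors it in the matrix, showed the widest layer difference of the 10 genes. It had 226.9, 246.4 and 244.8 CPM in SLC with IL-1β and 156.7, 160.3 and 158.8 CPM with IL-1β + LOXL2. The values in MLC were 359.6, 549.0 and 416.5 CPM with IL-1β and 386.6, 331.0 and 271.8 CPM with IL-1β + LOXL2. The SLC groups were tight and well apart, with LOXL2 replicate 1 no closer to IL-1β than the other LOXL2 libraries, whereas the MLC groups overlapped. LTBP1 fell by 29.7% averaged over layers (log2 fold change -0.51, standard error 0.11, edgeR's quasi-likelihood adjusted p = 0.00535). The log2 fold change was -0.61 in SLC (standard error 0.092, edgeR's quasi-likelihood adjusted p = 0.0706), where the gene ranked 13 of 14103 by unadjusted p, and -0.42 in MLC (standard error 0.15, adjusted p = 0.0624). The MLC value passed with DESeq2's Wald test (adjusted p = 0.0270), with no filter on low counts (adjusted p = 0.00793 in edgeR) and without replicate 1 of MLC IL-1β + LOXL2 (log2 fold change -0.55, adjusted p = 0.00247 in edgeR). Without replicate 2 of MLC IL-1β, the highest library, it was down to -0.24 (adjusted p = 0.243 in edgeR). Every MLC library was above every SLC library. LTBP1 was 1.85-fold higher in MLC with IL-1β (log2 fold change 0.89, standard error 0.11, edgeR's quasi-likelihood adjusted p = 1.67e-05) and 2.10-fold higher with IL-1β + LOXL2 (log2 fold change 1.07, standard error 0.14, adjusted p = 0.00263).

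LTBP2, an LTBP that does not itself bind latent TGF-β and sits on fibrillin microfibrils, had 2739, 3223 and 2833 CPM in SLC with IL-1β and 2208, 1266 and 1611 CPM with IL-1β + LOXL2. In MLC the values were 2708, 2508 and 2718 CPM with IL-1β and 2240.3, 1855 and 1654 CPM with IL-1β + LOXL2. All 6 LOXL2 libraries were below all 6 IL-1β libraries, with replicate 1 the highest LOXL2 library in each layer. LTBP2 had the largest decrease of the 10 genes and fell by 35.3% averaged over layers (log2 fold change -0.63, standard error 0.12, edgeR's quasi-likelihood adjusted p = 0.00511). It fell by 27.7% in MLC (log2 fold change -0.47, standard error 0.11, edgeR's quasi-likelihood adjusted p = 0.0208), a call lost without replicate 1 or 3 of MLC IL-1β (adjusted p = 0.0804 and 0.0969) or replicate 2 or 3 of MLC IL-1β + LOXL2 (0.108 and 0.0529). In SLC the log2 fold change was -0.80 (standard error 0.21, edgeR's quasi-likelihood adjusted p = 0.0706), and -1.05 without replicate 1 of IL-1β + LOXL2 (adjusted p = 7.76e-05). Between layers LTBP2 did not pass (log2 fold change -0.15 with IL-1β and 0.19 with IL-1β + LOXL2, edgeR's quasi-likelihood adjusted p = 0.122 and 0.645), although with no filter on low counts the first did (adjusted p = 0.0442). Leaving out single libraries moved them from -0.19 to -0.075 and from 0.011 to 0.44.

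LTBP3, which like LTBP1 binds the latent complex, behaved unlike the other LTBPs. It had 311.4, 319.3 and 298.4 CPM in SLC with IL-1β and 320.0, 353.6 and 334.1 CPM with IL-1β + LOXL2. Its level in MLC was 196.2, 188.6 and 203.1 CPM with IL-1β and 199.4, 216.4 and 224.8 CPM with IL-1β + LOXL2. The LOXL2 libraries were on the high side in each layer, without overlap in SLC by a margin of less than 1 CPM and with overlap in MLC. The averaged log2 fold change for LOXL2 was 0.12 (95% interval -0.0022 to 0.24, edgeR's quasi-likelihood adjusted p = 0.0918) and did not pass. Every SLC library was far above every MLC library. LTBP3 was lower in MLC by a log2 fold change of -0.66 with IL-1β (standard error 0.059, edgeR's quasi-likelihood adjusted p = 4.89e-07) and -0.64 with IL-1β + LOXL2 (standard error 0.11, adjusted p = 0.00662). The call with LOXL2 was lost without replicate 2 of MLC IL-1β + LOXL2 (log2 fold change -0.65, edgeR's quasi-likelihood adjusted p = 0.0502). LTBP1 and LTBP3 thus ranked the layers in opposite orders.

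SMAD7, the inhibitory SMAD that recruits ubiquitin ligases to the active receptor, had 37.2, 38.4 and 39.1 CPM in SLC with IL-1β and 33.3, 31.7 and 35.2 CPM with IL-1β + LOXL2. Levels in MLC were 42.9, 37.6 and 44.3 CPM with IL-1β and 37.1, 37.7 and 36.4 CPM with IL-1β + LOXL2. The groups were apart in SLC and overlapped in MLC. SMAD7 fell by 11.7% averaged over layers (log2 fold change -0.18, standard error 0.062, edgeR's quasi-likelihood adjusted p = 0.0296), and the call was kept in 5 of 12 fits that left out a library. With no filter on low counts it was lost (adjusted p = 0.0673 in edgeR). It was also lost, at an adjusted p from 0.0524 to 0.0811 in edgeR, without replicate 2 or 3 of SLC IL-1β, replicate 2 of SLC IL-1β + LOXL2, replicate 1 or 3 of MLC IL-1β, or replicate 2 or 3 of MLC IL-1β + LOXL2. Neither layer alone nor either layer difference passed, although without replicate 2 of MLC IL-1β the layer difference with IL-1β did (log2 fold change 0.19, edgeR's quasi-likelihood adjusted p = 0.0409).

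Ordered by mean level, the 4 groups fell into different sequences for different genes. The means of TGFBR1 and TGFBR2 went up from MLC with LOXL2 through SLC with LOXL2 and MLC with IL-1β to SLC with IL-1β, and only the last step separated neighbouring groups. For TGFBR3 the same order held, and both LOXL2 groups lay apart from MLC with IL-1β as well. LTBP2 had SLC with LOXL2 lowest, overlapping MLC with LOXL2, then MLC with IL-1β and SLC with IL-1β, each apart from the one below. LTBP1 ran from SLC with LOXL2 to SLC with IL-1β to the MLC groups, which overlapped each other. TGFB1 was lowest in the SLC groups, which overlapped, then MLC with IL-1β and MLC with LOXL2, while LTBP3 was lowest in the MLC groups, which overlapped, then SLC with IL-1β and SLC with LOXL2. For SMAD7 only SLC with LOXL2, the lowest, stood apart from its neighbour, and for TGFB2 and TGFB3 no neighbours did.

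The LOXL2 fold changes, taken with their sign, moved with the genomic span of the gene, introns included, over the whole transcriptome. Spearman's rho between span and log2 fold change was -0.49 in SLC (14081 genes), -0.49 in MLC (13642 genes) and -0.48 averaged over layers (14509 genes), described across genes with no p because genes are not independent. TGFB2, the 3 receptors, LTBP1 and LTBP2 all belong to the longest of 4 equal-sized span groups of the tested genes. In that group of 3627 genes the median averaged log2 fold change was -0.30 and 49.7% were called lower, against a median of 0.33 and 6.78% in the shortest group. The same 5 genes that fell past the threshold in all leave-one-out fits are thus long genes among other long genes that were lower. When each library's trend of level on span was removed, LTBP2 (log2 fold change -0.34), TGFBR1 (-0.25) and TGFBR3 (-0.17) still passed averaged over layers (edgeR's quasi-likelihood adjusted p = 0.00571, 0.0135 and 0.0220). LTBP1 (-0.14), TGFBR2 (-0.10) and SMAD7 (-0.15) did not (edgeR's quasi-likelihood adjusted p = 0.322, 0.146 and 0.0554). In MLC alone none of the 10 passed after this removal, and in SLC none did with or without it. Library by library, against the mean of the IL-1β libraries of its layer, rho was -0.31 in replicate 1 of IL-1β + LOXL2 in each layer and -0.44 to -0.48 in replicates 2 and 3, whereas the IL-1β libraries ran from -0.27 to 0.18. What sets the span trend was not tested, and RNA quality values were not used here. The layer calls moved less with span. With the trend removed, TGFB1, TGFB2, TGFBR1, TGFBR2, LTBP1 and LTBP3 passed with IL-1β and TGFBR3 did not (log2 fold change -0.072, edgeR's quasi-likelihood adjusted p = 0.294).

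**Figure D2:**
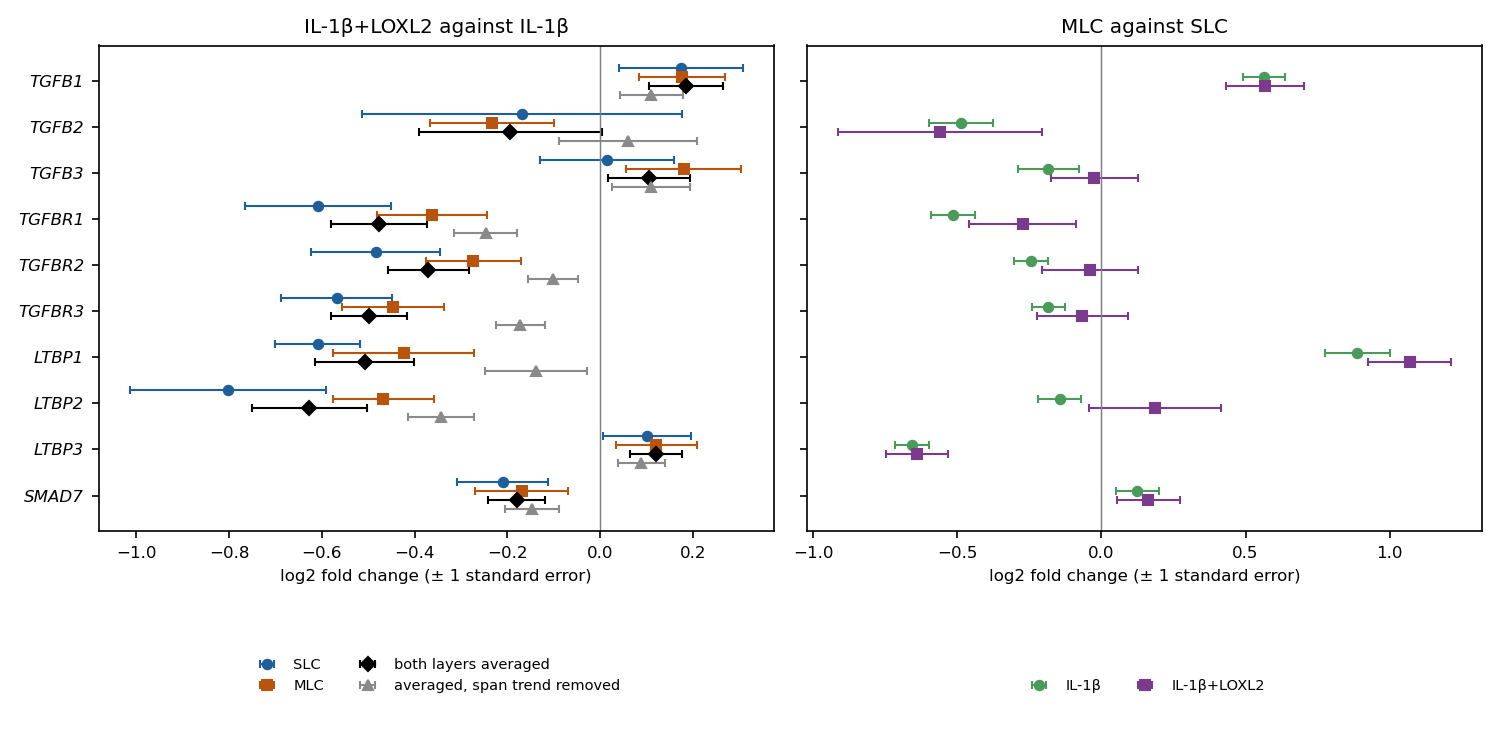
Log2 fold changes of the 10 genes with error bars of 1 standard error, on the left for IL-1β + LOXL2 against IL-1β in SLC, in MLC, averaged over layers and averaged with the gene-span trend removed, and on the right for MLC against SLC under each treatment. The receptors, LTBP1 and LTBP2 lie left of 0 in all 4 LOXL2 series and move toward 0 when the span trend is removed.

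Between the layers, 7 of the 10 genes differed past the threshold with IL-1β (2 higher and 5 lower in MLC), where 46.9% of 13965 genes did (24.2% higher and 22.7% lower). The layers did not overlap for 2 genes that were higher and 6 that were lower, against 28.1% and 27.8% of all genes. With IL-1β + LOXL2, 3 of the 10 differed (TGFB1 and LTBP1 higher, LTBP3 lower), against 16.1% of 14085 genes (9.27% higher and 6.83% lower). The layers then did not overlap for 3 genes that were higher (TGFB1, LTBP1 and SMAD7) and 1 that was lower (LTBP3), against 18% and 17% of all genes. This comparison called 2268 genes, or 3887 with the replicate number as a block, and the same count of 3 members. It called 1140 genes and 1 member, LTBP1, without replicate 2 of MLC IL-1β + LOXL2, and 4679 genes and 3 members without replicate 1 of SLC IL-1β + LOXL2. With all 12 libraries in 1 fit, 3715 genes and 4 members differed with IL-1β. The same fit gave 4199 genes and 3 members with IL-1β + LOXL2, so the order of the gene counts turned. The 2 layer comparisons and the 2 LOXL2 comparisons share libraries and are not independent of each other. Whether the LOXL2 effect differed between layers was tested directly as an interaction in all 12 libraries. It called none of the 10 and 0 of 14534 genes (0%) in edgeR's quasi-likelihood test, and at an unadjusted p under 0.05 there were none of the 10 and 2.26% of all genes (328), with 0 calls by DESeq2's Wald test too. This rests on 1 library, since without replicate 1 of SLC IL-1β + LOXL2 there were 2 of the 10 and 3987 of 14718 genes at an unadjusted p under 0.05, and 0 of the 10 and 1 gene past the adjusted threshold. The intervals were wide. For LTBP2 the LOXL2 log2 fold change in MLC minus that in SLC was 0.33 (95% interval -0.21 to 0.86), for TGFBR1 it was 0.24 (-0.21 to 0.68), for TGFBR2 0.20 (-0.18 to 0.58) and for LTBP1 0.17 (-0.29 to 0.63). Leaving out single libraries moved these from 0.15 to 0.56 for LTBP2, 0.13 to 0.40 for TGFBR1, 0.088 to 0.32 for TGFBR2 and 0.043 to 0.35 for LTBP1, with the highest value of the first 3 without replicate 1 of SLC IL-1β + LOXL2. Over 14509 genes the interaction moved with genomic span too (Spearman's rho 0.33). With the span trend removed, the LTBP1 value turned to -0.0068. A weaker effect in MLC is therefore not shown, and the intervals allow effects in either direction.

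Genes that handle latent TGF-β outside the cell were taken from a list of 18, of which 16 were tested. Averaged over layers 6 of the 16 fell with LOXL2 and 2 rose, where 50.5% of all genes passed, 23.9% lower and 26.6% higher. The median log2 fold change was -0.16 over the 16 and 0.013 over all genes. FBN2 and FBN1, the fibrillins on which LTBPs assemble, fell by log2 fold changes of -1.01 and -0.89 (standard error 0.10 and 0.18, edgeR's quasi-likelihood adjusted p = 0.00288 and 0.00511). FBN1 went from 3715 ± 291 CPM (SD, n = 3) to 1750 ± 753 CPM (SD, n = 3) in SLC and from 1633 ± 141 to 1008 ± 257 CPM in MLC. ITGB8, the integrin subunit that frees TGF-β from its latent complex, fell by a log2 fold change of -0.81 (standard error 0.081, edgeR's quasi-likelihood adjusted p = 0.00288). BGN, the small proteoglycan biglycan that can bind TGF-β, rose by 0.31 on the same scale (standard error 0.074, adjusted p = 0.00706 in edgeR). In MLC alone 5 of the 16 fell, where 11.8% of all genes were called lower and 9.81% higher. FBN2, ITGB8 and FBN1 fell by the most there (-0.90, -0.73 and -0.70). In SLC none passed, and the same 3 genes had log2 fold changes of -1.14, -0.92 and -1.10. Without replicate 1 of SLC IL-1β + LOXL2 all 3 passed in SLC (-1.10, -0.94 and -1.51).

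Of 34 receptor partners and SMAD signal genes, 18 fell and 2 rose with LOXL2 averaged over layers (median log2 fold change -0.24). Of all genes 50.5% passed, 23.9% lower and 26.6% higher. Among the genes of longest span 49.7% were called lower, with a median log2 fold change of -0.30. The counts of this list and of the extracellular list were made without removing the span trend. In MLC 8 fell and 1 rose, beside 11.8% of all genes lower and 9.81% higher. The largest averaged decreases belonged to TRIM33, a SMAD4 regulator (-0.81), the SMAD coactivator EP300 (-0.77) and the ubiquitin ligase RNF111 (-0.65), while STUB1, a ligase that can target SMAD3, rose (0.44). All 4 had an edgeR quasi-likelihood adjusted p of at most 0.00702. In MLC their log2 fold changes were -0.71, -0.67, -0.55 and 0.37, and with the span trend removed RNF111 and STUB1 no longer passed there (-0.33 and 0.14). In SLC none of the 34 passed, and TRIM33, EP300 and the polarity protein gene PARD6A had the largest values without overlap (-0.91, -0.89 and 0.84). All 3 passed without replicate 1 of SLC IL-1β + LOXL2, and without its replicate 2 PARD6A was at 0.44.

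Of 35 tested genes known to respond to TGF-β, 9 fell and 8 rose averaged over layers (median log2 fold change -0.043), so these targets had no common direction. Of all genes 50.5% passed there, 23.9% lower and 26.6% higher. HAS2 (hyaluronan synthase), ADAM12 and FN1 (fibronectin) fell by log2 fold changes of -0.86, -0.69 and -0.68, and TAGLN (transgelin) and CDKN1A (the cell cycle inhibitor p21) rose by 0.46 and 0.27, with an edgeR quasi-likelihood adjusted p of at most 0.00570. The CDKN1A call was lost with the span trend removed (log2 fold change 0.080, edgeR's quasi-likelihood adjusted p = 0.241). In MLC 7 rose and 4 fell, where 9.81% of all genes were called higher and 11.8% lower. TIMP1 (0.61), ACTA2 (0.54) and TAGLN (0.53) led those that rose, and HAS2 (-0.89), ADAM12 (-0.55) and FN1 (-0.54) those that fell. In SLC none passed, and ADAM12, FN1 and HAS2 had log2 fold changes of -0.85, -0.84 and -0.83. These 3 passed in SLC without replicate 1 of SLC IL-1β + LOXL2 (-1.15, -1.16 and -1.15). The MLC calls of the genes named from these lists depend on single libraries too, and each was lost without replicate 1 or 3 of MLC IL-1β or replicate 2 of MLC IL-1β + LOXL2.

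The same lists were read between the layers. With IL-1β 46.9% of all genes differed, 24.2% higher and 22.7% lower in MLC. With IL-1β + LOXL2 16.1% did, 9.27% higher and 6.83% lower, and the counts below are to be read beside these shares. The replicate number as a block gave 3887 of 14085 genes with IL-1β + LOXL2, while the list counts have no block. With IL-1β, 14 of 16 extracellular genes differed, 7 in each direction. EMILIN1, which holds back TGF-β processing, was higher in MLC (log2 fold change 1.496), as were DCN (1.04) and ITGB8 (0.89), and LRRC32, the cell surface anchor of latent TGF-β known as GARP, was lower (-3.34), as were ITGB3 (-1.98) and FBN1 (-1.18). LRRC32 went from 14.01 ± 2.20 CPM (SD, n = 3) in SLC to 1.38 ± 0.690 CPM (SD, n = 3) in MLC. With IL-1β + LOXL2, 4 were higher and 3 lower, with EMILIN1 (1.56), ITGB8 (1.08), DCN (1.01), LRRC32 (-2.99), ITGB3 (-1.96) and ITGB5 (-0.84) the largest. Of the 34 signal genes 5 were higher and 11 lower in MLC with IL-1β. The decoy receptor BAMBI (1.46), SMURF2 (0.39) and STUB1 (0.28) led the higher ones, and the type I receptor ACVRL1 (-2.28), PARD6A (-0.67) and SMAD3 (-0.58) the lower ones. ACVRL1 was scarce, at 3 to 12 counts per MLC library with IL-1β, and the PARD6A call was kept in 1 of 6 fits that left out a library. With IL-1β + LOXL2, in the fit without a block, only BAMBI (1.55), ACVRL1 (-1.54) and SMAD3 (-0.54) of the 34 passed. The ACVRL1 and SMAD3 calls were kept in 3 and 2 of 6 fits that left out a library. Of the 35 targets 16 were higher and 10 lower in MLC with IL-1β, CDH2 (2.16), HAS2 (1.35) and POSTN (1.27) against TGFBI (-1.91), LOX (-1.13) and ANGPTL4 (-0.96). With IL-1β + LOXL2, 13 were higher and 5 lower, CDH2 (2.41), POSTN (1.41) and HAS2 (1.28) against TGFBI (-1.48), LOX (-0.75) and ACTA2 (-0.56). Among these, HAS2 and ACTA2 kept the call in 2 and LOX in 3 of 6 fits that left out a library, each losing it without replicate 3 of SLC IL-1β + LOXL2.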

How the data were processed

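The authors deposited raw counts of read pairs per gene for 12 messenger RNA libraries, made with featureCounts after mapping to ARS1.2, the goat assembly, and their processing notes also name HISAT2. Strand and multi-mapping settings are not stated, so counts of genes that overlap others are uncertain. All further values were computed here in R 4.3.3. Genes passed edgeR's filterByExpr (at least 10 counts, 15 in total), were scaled by TMM and tested two-sided with edgeR 4.0.16 (quasi-likelihood, Benjamini-Hochberg over all tested genes). Comparisons within a layer or a treatment used 6 libraries, and the averaged and interaction tests used 12. Standard errors are the log2 fold change divided by the root of F. The default edgeR fit of each comparison was tried on simulated counts, while the alternative fits and the other steps were not.

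Alternatives were DESeq2 1.42.0 (its size factors, and its Wald test), other filters on low counts, the replicate number as a block, 1 fit on all 12 libraries, leaving out each library, and removing each library's trend on genomic span (lowess, 0.3). Replicate numbers come from the labels. Same-numbered SLC and MLC libraries with IL-1β + LOXL2 deviated from their group means together (correlations 0.168 to 0.605), which meets the rule used here for paired numbers. The reported tests have no block, so the p-values averaged over layers may be too small, and the blocked fit is given as an alternative.

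The gene lists were extracellular control of TGF-β, receptor partners with SMAD signal genes, and TGF-β targets. From each list and comparison, up to 3 genes a direction with the largest fold changes past the threshold and without overlap were named, or the 3 largest without overlap where none passed. The 3 genes most correlated with each member (log2 CPM), or only the first for TGFB3 and SMAD7, were named too. Of each marker list except skeletal muscle, the gene with the most counts and some of those near 0 were also named. The members and lists were chosen with earlier results of these data known.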

Additional observations from a re-analysis of the deposited data

How the results depend on the processing

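Of the alternative values for the 10 genes, 772 kept their call and direction, 30 passed where the fit of the report did not, 43 were lost and 35 reversed. The cause was not tested for any of them. In SLC, genes past the threshold went from 0 to 4105 with DESeq2's Wald test and 5965 with all 12 libraries in 1 fit, and members from 0 to 5 with each. In MLC, members went from 3 to 5 with the replicate number as a block and to 0 with the span trend removed (1815 genes) or with all 12 libraries (0 genes). Averaged over layers, removing the span trend left 3 members. Between layers with IL-1β, all 12 libraries gave 3715 genes and 4 members. Between layers with IL-1β + LOXL2, the block gave 3887 genes and all 12 libraries 4199. The block changed no other count of calls by over 1.5 times. Among calls of the 10 genes it added TGFB1 averaged over layers and TGFBR2 and LTBP1 in MLC, and lost TGFBR3 between layers with IL-1β. Same-numbered libraries of the other group pairs correlated from -0.227 to 0.241. TGFB2 turned to 0.12 (SLC) and 0.059 (averaged) with the span trend removed. The interaction of TGFB1 turned to 0.0058 with DESeq2's size factors, 0.0028 with no filter, 0.0075 with DESeq2's Wald test and 0.0061 without the span trend, which also turned TGFBR3 to -0.023 and LTBP1 to -0.0068. Leaving out single libraries gave 0 to 8849 genes and 0 to 7 members in SLC, 0 to 6653 and 0 to 6 in MLC, 5541 to 9223 and 5 to 9 averaged, 5410 to 6625 and 6 to 8 between layers with IL-1β, 1140 to 4679 and 1 to 3 with IL-1β + LOXL2, and 0 to 1 and 0 to 0 for the interaction. Log2 fold changes that crossed 0 in these fits ran from -0.65 to 0.13 (TGFB2) and -0.065 to 0.11 (TGFB3) in SLC. Between layers with LOXL2 they ran from -0.13 to 0.047 (TGFB3), -0.15 to 0.092 (TGFBR2) and -0.19 to 0.049 (TGFBR3). In the interaction they ran from -0.12 to 0.077 (TGFB1), -0.37 to 0.40 (TGFB2), -0.017 to 0.21 (TGFBR3), -0.031 to 0.055 (LTBP3) and -0.043 to 0.077 (SMAD7). With 3 libraries a group, small differences can be missed, and at 14158607 counts in the smallest library scarce genes such as ACVRL1 are measured coarsely.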

Other observations

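Across the 12 libraries, the log2 level of TGFBR1 followed those of RBPJ, KCTD20 and NR1D2 most closely (Pearson's r = 0.991, 0.987 and 0.985), described with no p. TGFBR2 was closest to TSPYL1, MYO1E and RAB11FIP2 (r = 0.981, 0.978 and 0.977). For TGFBR3 the closest were CRTC3, NCOA2 and SASH1 (r = 0.985 for each). LTBP2 was closest to ATXN7, ATM and ANKRD44 (r = 0.993, 0.992 and 0.992). For LTBP1 they were IGSF3, ACSL4 and PAWR (r = 0.988, 0.980 and 0.979), and for LTBP3 FBLN2, LOC102184389 and ANKRD29 (r = 0.990, 0.989 and 0.988). TGFB1 followed TMEM214, RCN3 and ASRGL1 (r = 0.994, 0.993 and 0.992). TGFB2 followed EPB41, EXOC1 and RNF145 (r = 0.950, 0.945 and 0.938). The closest genes were less close for TGFB3 (GTPBP8, r = 0.865) and SMAD7 (SLC16A12, r = 0.936). Among the 10 genes themselves, TGFBR2 and TGFBR3 (r = 0.930), TGFBR1 and TGFBR2 (r = 0.925) and LTBP2 and TGFBR2 (r = 0.918) were close, and all these libraries share the group differences described above.

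On the goat genome ARS1.2, TGFB1 is on chromosome 18 (51418423 to 51434470), TGFB2 on 16 (20346760 to 20439571) and TGFB3 on 10 (15809952 to 15835252). TGFBR1 is on chromosome 8 (63759178 to 63829333), TGFBR2 on 22 (5019184 to 5109134) and TGFBR3 on 3 (68891052 to 69076937). LTBP1 is on chromosome 11 (15324388 to 15780520), LTBP2 on 10 (17220134 to 17331609), LTBP3 on 29 (44131694 to 44152416) and SMAD7 on 24 (48805330 to 48834225).

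The other marker lists were ranked by counts only, without transcript length. The fibrous layer list was led by COL1A1, at 36418 to 36560.0 CPM as group means in SLC and 32078 to 34969 CPM in MLC, while TNMD had 0 counts throughout. The vessel list, led by VWF, summed to 2.92 to 5.23 CPM over the libraries. The mural list was led by CSPG4, at 154 CPM in SLC and 358 CPM in MLC with IL-1β. RUNX2 led the osteoblast list (22.7 to 35.8 CPM as group means), with DMP1 at 0, and no skeletal muscle marker reached 1 CPM.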
